A study of Mus musculus with 4 samples.

Results

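Cholesterol synthesis, uptake and regulation were read from 27 genes of the 17505 in a table of transcript levels from the irradiated mouse intestine. The genes were the rows whose NCBI gene identifier belongs to a gene of the mevalonate and sterol pathways, their regulators or the intestinal sterol transporters, with a mean level of at least 1 FPKM over the libraries. All 27 listed genes were found and all 27 reached that level, among 11621 genes that did. FPKM are the fragments counted for a gene, scaled by the length of its transcript and by the mapped total of the library. The study asked how CREPT, a protein encoded by Rprd1b that binds RNA polymerase II, acts in the regenerating intestine. RNA came from C57BL/6 mice of both genotypes after a single abdominal X-ray dose of 10 Gy, and the intestines were taken 3 days later. Vil-CREPT-KO mice carried villin-Cre and CREPT fl/fl alleles, WT mice were labelled as wild type, and each genotype gave 2 libraries, called Vil-CREPT-KO 1 and 2 (the knockout pair) and WT 1 and 2. The study used young adult mice of both sexes. It bred Vil-CREPT-KO mice by crossing villin-Cre, CREPT fl/fl with CREPT fl/fl animals, a cross in which wild-type littermates carry the floxed alleles without Cre, but the labels do not say that the sequenced WT mice came from it. All 4 libraries were irradiated, so the comparison is between genotypes after irradiation. Villin drives Cre in the epithelium, so other cells of the intestine keep Rprd1b, and the labels do not name the segment. The replicates are described as biological and as separate mice, although the labels do not tie a library to an animal. In bulk tissue, fewer cells of a type and less RNA per cell cannot be told apart.

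Cells build cholesterol from acetyl-CoA. The mevalonate arm makes farnesyl diphosphate, and the sterol arm turns it into squalene, lanosterol and finally cholesterol. When sterols in the endoplasmic reticulum are low, SCAP escorts the SREBP transcription factors to the Golgi, where they are cleaved to their active form, and SREBP-2 then switches on nearly the whole pathway. When sterols are plentiful, INSIG proteins hold SCAP back, and Insig1 is itself an SREBP target. The small intestine also takes up sterols from the lumen through NPC1L1 and returns them through the ABCG5 and ABCG8 pair, whose genes are targets of the oxysterol receptor LXR.

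The promoters of these genes are shown because SREBP and its partners are known to act at such regions. RefSeq windows on GRCm38.p6, 250 bases before to 50 after each start site, matched 23 of the 27 genes through 32 windows. There was no window for Fdps, Fdft1, Sqle and Stard4. The windows below are those of Insig1 (chr5:28071162-28071461, + strand), Hmgcs1 (chr13:119690101-119690400, + strand), Mvk (chr5:114444019-114444318, + strand), Idi1 (chr13:8885356-8885655, + strand) and Abcg8 (chr17:84682871-84683170, + strand). Insig1 is the gene that passed the test, Hmgcs1 holds the only match to a sterol element, Mvk the most CCAAT boxes, Idi1 a pair of them near the start, and the Abcg8 window spans the start sites of both transporters. Capitals mark CCAAT boxes, read as ATTGG or CCAAT, and in Hmgcs1 also the sterol regulatory element TCACCCCAC.
Insig1: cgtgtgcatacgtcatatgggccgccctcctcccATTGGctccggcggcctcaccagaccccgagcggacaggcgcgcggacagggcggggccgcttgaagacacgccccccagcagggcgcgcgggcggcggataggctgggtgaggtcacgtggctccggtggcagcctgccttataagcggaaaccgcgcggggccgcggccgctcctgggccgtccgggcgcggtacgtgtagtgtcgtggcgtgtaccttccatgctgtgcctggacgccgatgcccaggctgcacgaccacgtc
Hmgcs1: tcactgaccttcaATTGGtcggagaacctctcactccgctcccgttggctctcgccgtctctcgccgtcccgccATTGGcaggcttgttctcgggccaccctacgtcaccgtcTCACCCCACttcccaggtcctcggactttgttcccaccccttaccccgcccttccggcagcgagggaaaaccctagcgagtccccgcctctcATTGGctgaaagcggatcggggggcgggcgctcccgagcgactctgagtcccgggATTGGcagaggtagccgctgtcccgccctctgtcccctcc
Mvk: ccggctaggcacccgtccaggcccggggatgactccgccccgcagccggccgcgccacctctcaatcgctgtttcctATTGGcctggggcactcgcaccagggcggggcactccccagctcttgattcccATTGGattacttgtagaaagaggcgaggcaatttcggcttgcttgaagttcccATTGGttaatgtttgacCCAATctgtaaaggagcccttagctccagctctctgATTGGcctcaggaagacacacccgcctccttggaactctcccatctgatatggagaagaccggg
Idi1: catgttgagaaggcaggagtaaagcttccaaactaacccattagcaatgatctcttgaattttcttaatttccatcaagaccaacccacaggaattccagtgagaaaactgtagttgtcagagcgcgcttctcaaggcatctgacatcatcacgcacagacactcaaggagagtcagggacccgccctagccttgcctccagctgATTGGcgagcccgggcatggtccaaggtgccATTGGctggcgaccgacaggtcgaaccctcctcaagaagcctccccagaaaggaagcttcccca
Abcg8: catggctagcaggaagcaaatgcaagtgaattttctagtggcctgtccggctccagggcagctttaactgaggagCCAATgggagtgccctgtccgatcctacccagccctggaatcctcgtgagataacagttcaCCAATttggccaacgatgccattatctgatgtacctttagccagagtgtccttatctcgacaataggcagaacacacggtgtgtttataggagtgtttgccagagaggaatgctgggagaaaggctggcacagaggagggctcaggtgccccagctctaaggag
The CCAAT box, bound by NF-Y, a partner of SREBP, lay in windows of 21 of the 23 genes and was not found in those of Acat2 and Scap. The same letters, ATTGG on either strand, were found in 41.1% of the 27025 genes with a window and in 42.5% of the 9330 such genes that were tested. Mvk held 5 CCAAT boxes, Hmgcs1 and Nsdhl held 4 each, and the single box of Insig1 began 216 bases before the start site. The GC box GGGCGG, bound by Sp1, was found in 19 of 23 genes, beside 67.8% of the tested genes. A sterol element with an open base, TCACNCCAC, was found in 1 of 23 genes, Hmgcs1, beginning 137 bases before the start site, and in 1.44% of all genes. The classical sterol regulatory element, a longer form that holds those letters, was found in 0 of 23, beside 0.0999% of all genes. The direct repeat DR4 bound by LXR was also found in 0 of 23, beside 0.0148% of all genes. Of the 9330 tested genes with a window, 7 held the classical element and 0 held DR4. Matches to both are so rare that 0 of 23 cannot tell these genes from others. Both strands were searched for every motif, and a gene with several windows counted when any of them matched. A match describes the letters of the window and is not a measured binding site.

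The libraries differed in more than the genotype of the epithelium. Rprd1b itself, measured over the whole gene of which the floxed exon is a small part, was at 4.01 and 3.93 FPKM in knockout libraries 1 and 2, against 5.99 and 7.19 FPKM in WT 1 and 2, with a log2 difference of -0.61 ± 0.15 (SE) and a limma adjusted p of 0.129. The enterocyte gene Vil1, which encodes villin, was abundant in every library, at 338.14 and 367.26 FPKM in the knockout pair, against 500.90 and 453.54 FPKM in WT (limma adjusted p = 0.285). Markers of stomach mucous cells summed to 27.38 and 114.09 FPKM in Vil-CREPT-KO and to 39087.26 and 42424.80 FPKM in WT, and 11 of 11 passed the test as lower, with none at 0. Markers of pancreatic acinar cells summed to 101.21 FPKM in Vil-CREPT-KO 1 and to between 7452.76 and 20679.41 FPKM in the other libraries, with 0 of 13 tested called, 0 also at an unadjusted p under 0.05, and Prss1 at 0 in Vil-CREPT-KO 1 and WT 1. Markers of the duodenum summed to 248.25 FPKM in Vil-CREPT-KO 1, to 653.73 FPKM in Vil-CREPT-KO 2 and to 850.09 and 789.75 FPKM in WT. Of these 8 markers 0 were called. At an unadjusted p under 0.05, 3 were lower and 1 higher, beside 10.1% and 10.2% of all tested genes. Vil-CREPT-KO 1 thus stood apart from the other 3 libraries, and some of the values that change with it, not all, are given with and without it. The part of these markers in the sterol results was not tested.

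Of the 27 sterol genes, 1 passed the test as lower in Vil-CREPT-KO and 0 as higher. The test was limma on log2(FPKM + 1), and a call needed both an adjusted p under 0.05 and a change of more than 1 on the log2 scale. By the same rule 2.07% of all tested genes were called, 1.69% as lower and 0.387% as higher. At an unadjusted p under 0.05, 9 of the 27 genes were lower and 1 was higher, beside 10.1% and 10.2% of all tested genes. Of the 27 genes, 20 had a log2 difference below 0, beside 42.6% of all tested genes. The pair of Vil-CREPT-KO values was below the WT pair without overlap in 16 genes and above it in 4, and in 7 the groups overlapped. Over all tested genes these shares were 22.1% and 31.9%. When libraries were rescaled without stomach mucous and pancreatic genes, 18 sterol genes were below and 3 above, and over all 11621 genes 3810 were below and 2443 above. The median log2 difference was -0.43 over the 27 genes and 0.06 over all tested genes, or -0.54 and -0.06 after that rescaling. The plots of levels and of differences show both sides of this pattern: most enzymes were lower by less than the fold that a call needs, and Insig1 was lower by far more.

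**Figure D1:**
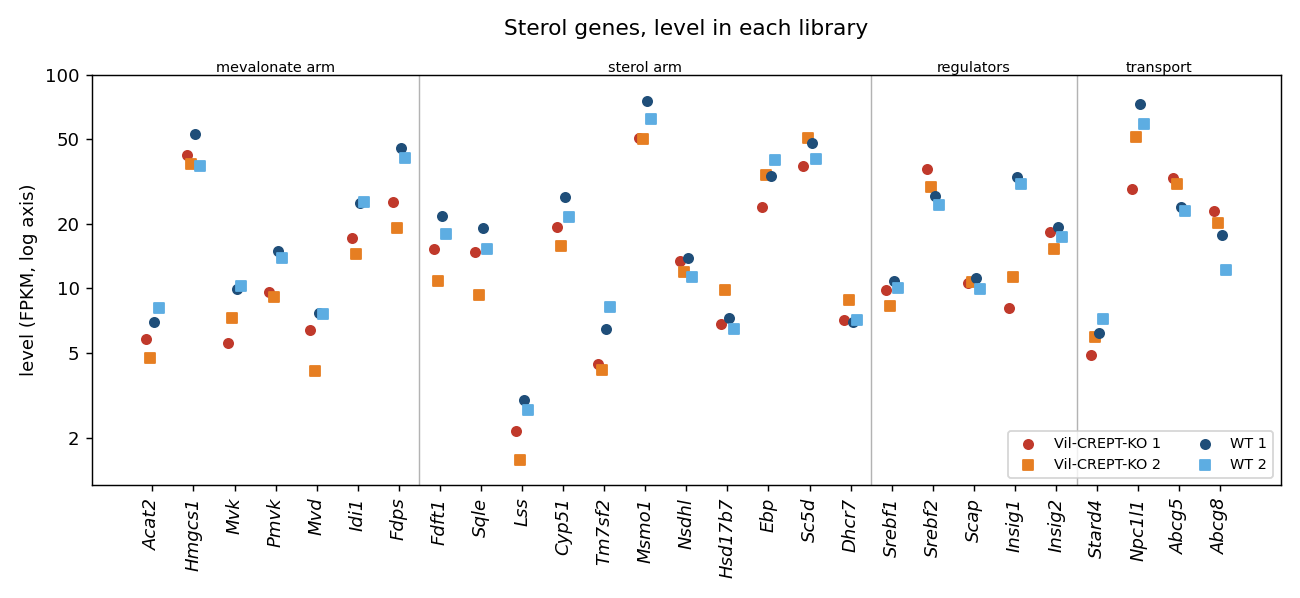
Level of the 27 sterol genes in each library, in FPKM on a log axis, ordered by role (red and orange, Vil-CREPT-KO 1 and 2; dark and light blue, WT 1 and 2). Both Vil-CREPT-KO points lie below both WT points in 16 genes and above them in 4.

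**Figure D2:**
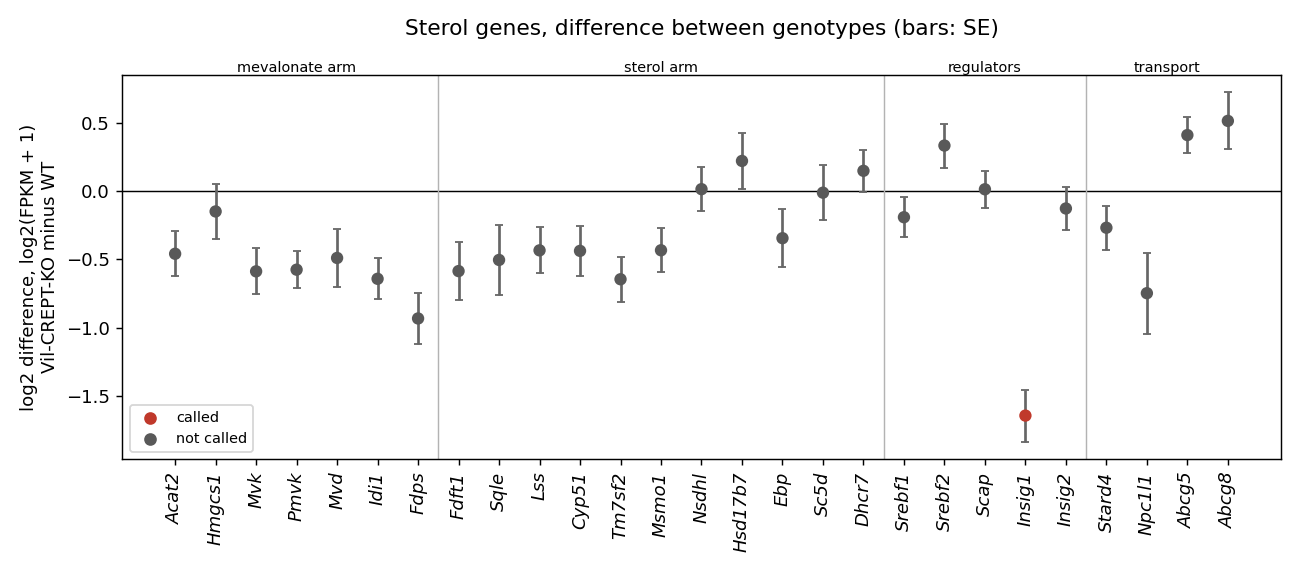
Difference of the 27 sterol genes on the log2(FPKM + 1) scale, Vil-CREPT-KO minus WT, with bars for the SE of the limma fit on 2 libraries a group. Insig1, in red, is the 1 called gene at -1.65, and the enzymes run from -0.93 in Fdps to 0.22 in Hsd17b7.

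Insig1, the sterol-sensing protein that retains SCAP, fell. Its level was 8.08 and 11.28 FPKM in knockout libraries 1 and 2, against 33.40 and 30.75 FPKM in WT 1 and 2. Both Vil-CREPT-KO libraries were far below both WT libraries, and the gap between groups was larger than the gap within either. The means were 9.68 ± 2.26 and 32.1 ± 1.87 FPKM (SD, n = 2), so that WT was 3.31-fold higher. The log2 difference was -1.65 ± 0.19 (SE), with a limma adjusted p of 0.0268. Among the 196 genes called lower, 108 had a lower log2 fold change than Insig1. Without Vil-CREPT-KO 1 the log2 difference was -1.43 with a limma adjusted p of 0.0125, and without Vil-CREPT-KO 2 it was -1.86 with 0.00183. The call ended without WT 1 (-1.59) or without WT 2 (-1.70), which leaves a single WT library and few calls over all genes. It also ended when low genes were kept (limma adjusted p = 0.0695) and with the replicate number as a block (limma adjusted p = 0.0559). Insig1 lies on chromosome 5, at chr5:28071412-28078662 of GRCm38.p6.

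The closely related Insig2, which encodes the other INSIG protein, gave values much closer to WT. Its level was 18.40 and 15.26 FPKM in the knockout pair, against 19.30 and 17.49 FPKM in WT, and the groups overlapped. The log2 difference was -0.13 ± 0.16 (SE), with a limma adjusted p of 0.687. Within each library Insig1 stood at 0.439 and 0.739 times Insig2 in the knockout pair, against 1.73 and 1.76 times Insig2 in WT. Both genes are given per length, so Insig1 was the lower of the pair in both Vil-CREPT-KO libraries and the higher in both WT libraries. This ratio does not depend on how a library was scaled, and it was chosen after the values were seen.

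The genes of the transcription factors and of their escort did not pass the test. Srebf2, which encodes SREBP-2, the main activator of the cholesterol pathway, was at 36.06 and 29.69 FPKM in the knockout pair, against 26.95 and 24.52 FPKM in WT. Both Vil-CREPT-KO values were the higher ones, with a log2 difference of 0.34 ± 0.16 (SE) and a limma adjusted p of 0.319. Srebf1, whose SREBP-1c form drives fatty acid synthesis, was at 9.79 and 8.30 FPKM in the knockout pair, against 10.79 and 10.07 FPKM in WT. These groups did not overlap either, in the other direction, with a log2 difference of -0.19 ± 0.15 (SE) and a limma adjusted p of 0.517. Taken within a library, the ratio of Srebf2 to Srebf1 was 3.68 and 3.58 in the knockout pair, against 2.50 and 2.43 in WT. Scap, the escort, was nearly level in all libraries, at 10.60 and 10.75 FPKM in the knockout pair, against 11.17 and 9.96 FPKM in WT. Its log2 difference was 0.02, with a limma adjusted p of 0.960. These are transcript levels, and the cleavage of SREBP proteins was not measured here.

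**Figure D3:**
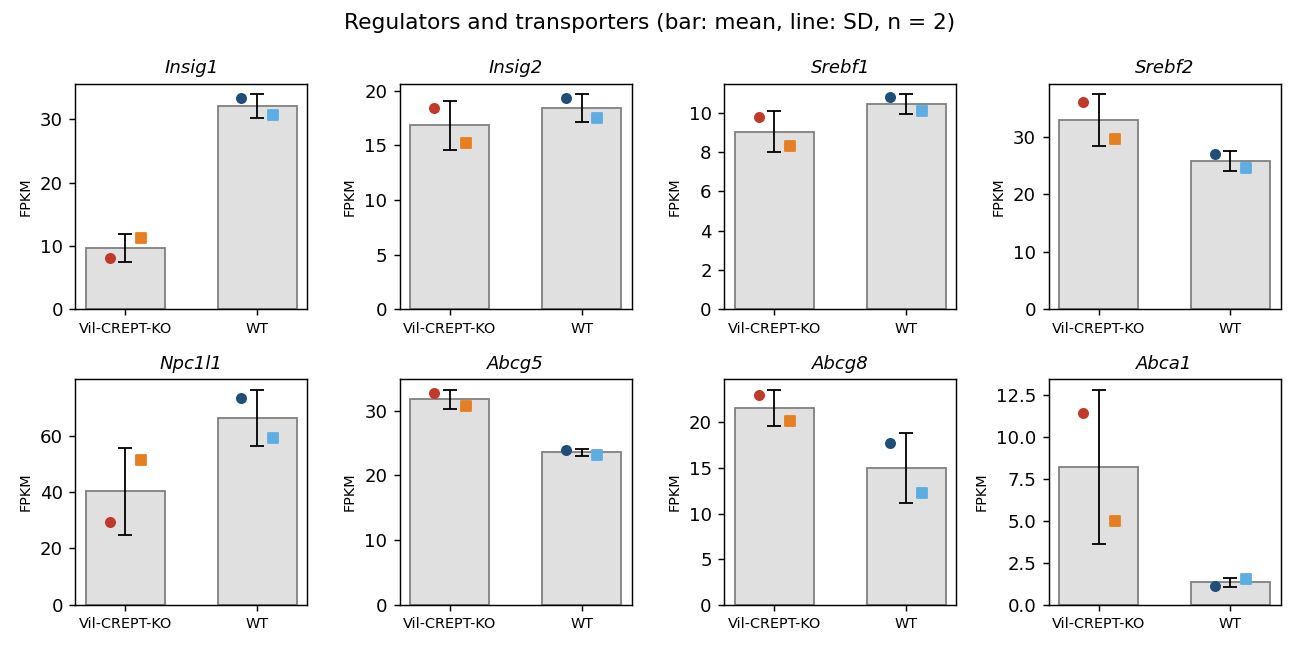
Level in FPKM of the regulators Insig1, Insig2, Srebf1 and Srebf2, of the transporters Npc1l1, Abcg5 and Abcg8, and of Abca1. Bars are means, lines the SD of 2 libraries, circles replicate 1 and squares replicate 2. Insig1 stands at 9.68 FPKM in Vil-CREPT-KO beside 32.1 FPKM in WT, and Insig2 at 16.8 beside 18.4 FPKM.

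The mevalonate arm was lower in both Vil-CREPT-KO libraries in 6 of its 7 genes, beside 22.1% of all tested genes. 0 of the 7 were called, and the median log2 difference was -0.57. At an unadjusted p under 0.05, 5 were lower, beside 10.1% of all tested genes. The largest difference was that of Fdps, the synthase of farnesyl diphosphate, where the sterol and the non-sterol branches part. Fdps was at 25.36 and 19.13 FPKM in the knockout pair, against 45.31 and 40.76 FPKM in WT. The groups were well apart, with means of 22.2 ± 4.41 and 43.0 ± 3.22 FPKM (SD, n = 2) and WT 1.93-fold higher. The log2 difference was -0.93 ± 0.19 (SE), with a limma adjusted p of 0.0860. It passed without Vil-CREPT-KO 1 (-1.13) and when libraries were rescaled without stomach mucous and pancreatic genes (-1.07, limma adjusted p = 0.0469). Under both settings more of all tested genes were called lower as well. Fdps lies at chr3:89093588-89101967. In the GENCODE vM21 annotation 1124 of its 1453 exon bases are shared with the gene model Gm43738 on the same strand, so its reads may have been divided between the models.

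Idi1, the isomerase that makes the reactive isoprene unit, was at 17.28 and 14.48 FPKM in the knockout pair, against 25.23 and 25.26 FPKM in WT. The WT libraries were almost equal and the Vil-CREPT-KO mean was 62.9% of theirs, with a log2 difference of -0.64 ± 0.15 (SE) and a limma adjusted p of 0.115. Mvk, mevalonate kinase, was at 5.56 and 7.30 FPKM in the knockout pair, against 9.91 and 10.26 FPKM in WT. Pmvk, phosphomevalonate kinase, was at 9.65 and 9.07 FPKM beside 15 and 13.87 FPKM. Both kinases were at close to the same share of WT, 63.8% for Mvk and 64.8% for Pmvk, with limma adjusted p of 0.157 and 0.116. Mvd, the decarboxylase that follows them, was at 6.38 and 4.12 FPKM in the knockout pair, against 7.64 and 7.61 FPKM in WT, and it varied more between the Vil-CREPT-KO libraries (limma adjusted p = 0.279). Acat2, the thiolase that joins the first acetyl units in the cytosol, was at 5.78 and 4.71 FPKM beside 7.0 and 8.13 FPKM (limma adjusted p = 0.220).

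Hmgcs1, the synthase of hydroxymethylglutaryl-CoA, was the exception of the mevalonate arm. Its level was 42.10 and 38.12 FPKM in the knockout pair, against 52.60 and 37.58 FPKM in WT. The WT libraries lay on both sides of the Vil-CREPT-KO libraries, and the log2 difference was -0.15 ± 0.20 (SE) with a limma adjusted p of 0.720. Without WT 1 it turned to 0.09. Hmgcs1, at chr13:119690351-119708260, was also the gene with the sterol element in the window above.

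In the sterol arm, both Vil-CREPT-KO values were below both WT values in 6 of 11 genes and above them in 1, Dhcr7. Over all tested genes these shares were 22.1% and 31.9%. 0 of the 11 were called, and the median log2 difference was -0.43. At an unadjusted p under 0.05, 3 were lower, beside 10.1% of all tested genes. The first enzymes of the arm were all on the lower side. Fdft1, squalene synthase, was at 15.30 and 10.82 FPKM in the knockout pair, against 21.82 and 18.00 FPKM in WT. Sqle, the epoxidase that acts next, was at 14.88 and 9.31 FPKM beside 19.23 and 15.26 FPKM. In both genes Vil-CREPT-KO 2 was the lowest library and Vil-CREPT-KO 1 came next, under WT 2, with log2 differences of -0.59 ± 0.21 and -0.50 ± 0.25 (SE) and limma adjusted p of 0.222 and 0.340. In GENCODE vM21, 774 of the 3698 exon bases of Fdft1 lie opposite the gene Ctsb, whose reads cannot be told apart there if strand was not used in the counting.

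Lss, lanosterol synthase and the least abundant of the 27 genes, was at 2.14 and 1.58 FPKM in the knockout pair, against 2.99 and 2.70 FPKM in WT. Cyp51, the lanosterol demethylase, was at 19.42 and 15.88 FPKM beside 26.89 and 21.64 FPKM. Both were at about the same share of WT, 65.4% for Lss and 72.7% for Cyp51, with limma adjusted p of 0.248 and 0.269. Tm7sf2, a sterol reductase, was at 4.44 and 4.14 FPKM in the knockout pair, against 6.44 and 8.19 FPKM in WT, the lowest share of the arm at 58.6% (limma adjusted p = 0.135). Msmo1, a methylsterol oxidase and the most abundant member of the pathway in WT 1, was at 50.44 and 50.33 FPKM beside 75.39 and 61.93 FPKM. The Vil-CREPT-KO libraries were almost equal for Msmo1, and its log2 difference was -0.43 ± 0.16 (SE) with a limma adjusted p of 0.235.

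Among the last enzymes of the arm Ebp was on the lower side with overlap between the groups, and the other 4 were near or above WT. Nsdhl, which with Msmo1 takes methyl groups off the sterol ring, was at 13.48 and 11.95 FPKM in the knockout pair, against 13.89 and 11.31 FPKM in WT. Hsd17b7, the keto-sterol reductase of the same step, was at 6.78 and 9.81 FPKM beside 7.28 and 6.45 FPKM. Both overlapped between the groups, with log2 differences of 0.02 and 0.22. Ebp, a sterol isomerase, was at 24.08 and 33.88 FPKM in the knockout pair, against 33.45 and 39.88 FPKM in WT. Sc5d, a sterol desaturase, was at 37.60 and 50.42 FPKM beside 47.82 and 40.19 FPKM. For both of these genes Vil-CREPT-KO 1 was the lowest library and Vil-CREPT-KO 2 was within or above the WT values, with log2 differences of -0.34 and -0.01. Dhcr7, the dehydrocholesterol reductase of the last step, was at 7.15 and 8.79 FPKM in the knockout pair, against 6.95 and 7.14 FPKM in WT, a log2 difference of 0.15. The limma adjusted p of these 5 genes ran from 0.420 to 0.984.

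Over all 18 enzymes, 12 were lower in both Vil-CREPT-KO libraries than in both WT libraries, beside 22.1% of all tested genes. The log2 differences of these 12 ran from -0.93 to -0.43 with a median of -0.54. The other 6 had a median of 0.00. The enzymes were sorted by the same values, which sets these medians apart. The 12 enzymes span both arms from Acat2 to Msmo1, and 5 of the other 6 follow Msmo1 in the pathway. This division was seen in the values and carries no test. Levels of the 18 enzymes summed to 307.82 and 303.84 FPKM in Vil-CREPT-KO and to 424.84 and 376.16 FPKM in WT. As a share of the WT mean, the median enzyme was at 76.6% in Vil-CREPT-KO 1 and at 64.1% in Vil-CREPT-KO 2. By this median Vil-CREPT-KO 1, which stands apart in its duodenal and pancreatic markers, was the nearer of the pair to WT. By the sum of the sterol arm it was the farther, at 195.71 FPKM beside 206.91 FPKM in Vil-CREPT-KO 2. In WT 1 and 2 that sum was 262.15 and 232.69 FPKM. The part of those markers in the enzyme values was not tested. Of the 18 enzymes, 13 were higher in Vil-CREPT-KO 1 than in Vil-CREPT-KO 2 and 12 were higher in WT 1 than in WT 2. The higher library exceeded the lower by a median of 1.27-fold in Vil-CREPT-KO and 1.18-fold in WT. With each library left out in turn, between 12 and 14 enzymes were lower without overlap, beside 3198 to 4345 of all 11621 genes.

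Several values moved when Vil-CREPT-KO 1 was left out, and none of the following passed the test with or without it. On the log2 scale Mvd went from -0.49 to -0.75 and Sqle from -0.50 to -0.81, farther from WT. Ebp went from -0.34 to -0.11 and Stard4 from -0.27 to -0.15, nearer to WT. Hsd17b7 went from 0.22 to 0.46 and Dhcr7 from 0.15 to 0.28. Nsdhl turned from 0.02 to -0.06 and Sc5d from -0.01 to 0.20. Of the regulators, Srebf2 went from 0.34 to 0.20, Srebf1 from -0.19 to -0.30 and Insig2 from -0.13 to -0.25.

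The transporters differed in direction, and 0 of 4 were called. At an unadjusted p under 0.05, 1 was higher, beside 10.2% of all tested genes. Npc1l1, the apical sterol importer and the target of ezetimibe, was at 29.31 and 51.24 FPKM in the knockout pair, against 73.22 and 59.12 FPKM in WT. Both Vil-CREPT-KO values were lower, but they were 1.75-fold apart from each other. The log2 difference was -0.75 ± 0.30 (SE), with a limma adjusted p of 0.253. It was -1.14 (limma adjusted p = 0.0244) without Vil-CREPT-KO 2 and -0.35 (limma adjusted p = 0.538) without Vil-CREPT-KO 1, so the size rested on Vil-CREPT-KO 1, in which the duodenal markers were at a median of 26.5% of WT beside 80.2% in Vil-CREPT-KO 2. The part of the duodenal markers in this value was not tested. Stard4, a carrier of sterols between membranes, was at 4.89 and 5.94 FPKM in the knockout pair, against 6.19 and 7.23 FPKM in WT (log2 difference -0.27, limma adjusted p = 0.411).

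Abcg5 and Abcg8 encode the partners of the sterol exporter and stood on the opposite side from Npc1l1. Abcg5 was at 32.74 and 30.71 FPKM in the knockout pair, against 23.96 and 23.16 FPKM in WT. Abcg8 was at 22.95 and 20.19 FPKM in the knockout pair, against 17.70 and 12.24 FPKM in WT. Neither gene overlapped between the groups, and Vil-CREPT-KO was 1.35-fold higher for Abcg5 and 1.44-fold higher for Abcg8. The log2 differences were 0.41 ± 0.13 and 0.52 ± 0.21 (SE), with limma adjusted p of 0.190 and 0.259. These genes lie head to head on chromosome 17, Abcg5 at chr17:84658174-84683011 and Abcg8 at chr17:84676302-84700333, and the start sites in the window above are 110 bases apart. Their exons share 40 bases on opposite strands in GENCODE vM21. Npc1l1 stood at 0.895 and 1.67 times Abcg5 in the knockout pair, against 3.06 and 2.55 times in WT, a ratio chosen after the values were seen.

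Other genes of sterol handling gave 0 calls among 27 tested of 28 listed, with a median log2 difference of -0.05. At an unadjusted p under 0.05, 4 were higher and 2 lower, beside 10.2% and 10.1% of all tested genes. The most abundant were the apolipoproteins Apoa1 and Apoa4. Apoa1 was at 10011.21 and 6478.76 FPKM in the knockout pair, against 6613.36 and 5382.54 FPKM in WT, and the groups overlapped. Apoa4 was at 7658.79 and 4789.86 FPKM beside 9662.37 and 9623.97 FPKM (limma adjusted p = 0.423). Without Vil-CREPT-KO 2 genes of the list were called in both directions, a fit in which calls over all genes also rose. Abca1, Gramd1b, Scarb1 and Osbpl2 were picked out after their values were seen, as genes far from WT on either side. Abca1, which passes cholesterol to lipid-poor apolipoprotein and is an LXR target, was at 11.43 and 4.97 FPKM in the knockout pair, against 1.14 and 1.54 FPKM in WT, a 6.12-fold difference of means. Both Vil-CREPT-KO values were several times the WT values and differed widely from each other, with a log2 difference of 1.89 ± 0.37 (SE) and a limma adjusted p of 0.0842. It passed without Vil-CREPT-KO 1 (1.36) and without Vil-CREPT-KO 2 (2.42), fits in which calls over all genes also rose. Gramd1b, which carries cholesterol from the plasma membrane to the endoplasmic reticulum, was at 32.05 and 23.04 FPKM beside 13.91 and 10.37 FPKM (log2 difference 1.11, limma adjusted p = 0.0945). It passed only without Vil-CREPT-KO 2, where calls over all genes rose as well. On the lower side, Scarb1, a receptor for high-density lipoprotein, was at 6.30 and 40.20 FPKM beside 66.64 and 59.19 FPKM, with a log2 difference of -1.88 ± 0.80 (SE) and a limma adjusted p of 0.274. Vil-CREPT-KO 1 was far below all other libraries for Scarb1. Osbpl2, a sterol-binding protein, was at 13.23 and 13.62 FPKM beside 22.60 and 20.80 FPKM (log2 difference -0.65, limma adjusted p = 0.0943). Macrophages also express Abca1. Of 7 macrophage markers 0 were called. At an unadjusted p under 0.05, 4 were higher, beside 10.2% of all tested genes. In 7 of 7 both Vil-CREPT-KO values were above both WT values, beside 31.9% of all tested genes. These markers summed to 414.88 and 312.91 FPKM in the knockout pair, against 213.06 and 263.34 FPKM in WT, with none at 0. Their part in the Abca1 value was not tested.

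Farnesyl diphosphate also feeds protein prenylation, dolichol and ubiquinone. Of 12 genes of this non-sterol branch, 0 were called, 0 also at an unadjusted p under 0.05, and their median log2 difference was 0.09, or -0.03 when libraries were rescaled without stomach mucous and pancreatic genes. The most abundant were Nus1, a subunit of the dolichol-making enzyme, and Rabggtb, a prenyltransferase subunit. Nus1 was at 42.69 and 41.36 FPKM in the knockout pair, against 31.14 and 35.29 FPKM in WT, without overlap (limma adjusted p = 0.280). Rabggtb was at 25.22 and 19.52 FPKM beside 16.70 and 22.72 FPKM, with overlap.

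Fatty acid synthesis, the SREBP-1 side of lipid making, had a median log2 difference of -0.31 over 12 tested genes of 16 listed. That median was -0.66 without Vil-CREPT-KO 1, -0.12 without Vil-CREPT-KO 2 and -0.65 over genes of at least 5 FPKM. In 7 of the 12 both Vil-CREPT-KO values were below both WT values and in 0 they were above, beside 22.1% and 31.9% of all tested genes. At an unadjusted p under 0.05, 5 were lower and 0 higher, beside 10.1% and 10.2% of all tested genes. Me1, malic enzyme, which supplies NADPH for lipid synthesis, was the 1 called gene and fell. It was at 12.20 and 16.88 FPKM in the knockout pair, against 38.10 and 35.43 FPKM in WT, with a log2 difference of -1.30 ± 0.19 (SE) and a limma adjusted p of 0.0472. That call held in 8 of 16 alternatives and ended without either WT library, where few calls remained over all genes. Scd2 and Fads2 came next and were named after their values were seen. Scd2, a stearoyl-CoA desaturase, was at 5.85 and 3.55 FPKM in the knockout pair, against 13.68 and 14.96 FPKM in WT. Fads2, a desaturase of polyunsaturated fatty acids, was at 3.97 and 3.51 FPKM beside 8.33 and 11.22 FPKM. Both were lower by more than 2-fold without overlap, and both had a limma adjusted p of 0.0536. Each passed when either knockout library was left out, fits in which calls over all genes also rose.

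The plot of gene lists sets the sterol arms beside the other lists in each library. The median of the mevalonate arm, as a share of the WT mean, was at 68.4% and 62.3% in Vil-CREPT-KO 1 and 2, and that of the sterol arm at 80.0% and 73.3%. Markers of enterocytes were at a median of 151% and 153%, those of cycling cells at 63.6% and 67.9%, and those of T cells at 48.7% and 50.6%. Of these markers 0 of 11, 0 of 9 and 0 of 4 were called. At an unadjusted p under 0.05 there were 5 higher enterocyte, 5 lower cycling cell and 3 lower T cell markers. Over all tested genes 10.2% were higher and 10.1% lower at that threshold. The enterocyte list was mixed, with 7 of its 11 markers at a log2 difference above 0 and 4, Vil1 among them, below 0. Both Vil-CREPT-KO values were above both WT values in 6 enterocyte markers and below them in 3, beside 31.9% and 22.1% of all tested genes. By their medians, the lists of cycling cells and T cells were on the same side as the sterol enzymes and that of enterocytes on the other. The stomach mucous, pancreatic acinar and duodenal lists were also on the lower side, at median log2 differences of -6.76, -4.19 and -1.20. Those of macrophages and fibroblasts were on the higher side, at 0.50 and 0.75. The part of all these lists in the sterol values was not tested. Of 8 hepatocyte markers 6 were in the table and 2 were tested. Ttr, a carrier of thyroid hormone, fell, from 18.99 and 15.53 FPKM in WT to 0.13 and 1.48 FPKM in the knockout pair (log2 difference -3.44, limma adjusted p = 0.0264). Alb, the defining hepatocyte gene, was between 0.08 and 0.26 FPKM in every library. Cyp2e1, the other tested marker, was at 3.56 and 0.16 FPKM in the knockout pair, against 0.94 and 1.16 FPKM in WT. Its groups overlapped, with a log2 difference of 0.17 and a limma adjusted p of 0.904. The list summed to 4.12 and 1.88 FPKM in the knockout pair, against 20.42 and 17.38 FPKM in WT. In WT that sum was mostly Ttr, and in Vil-CREPT-KO 1 mostly Cyp2e1. Serpina1a and Ahsg were at 0 in Vil-CREPT-KO 2 and WT 1, and Apoh was at 0 in Vil-CREPT-KO 2.

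**Figure D4:**
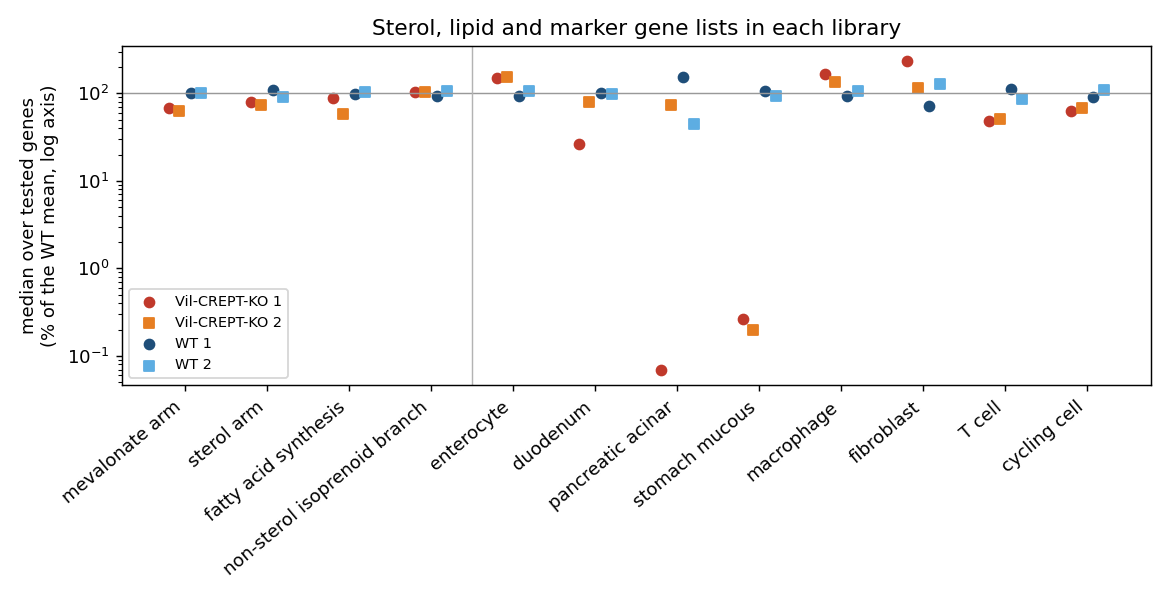
Median over the tested genes of each list, as a percentage of the WT mean on a log axis, in each library (red and orange, Vil-CREPT-KO 1 and 2; dark and light blue, WT 1 and 2). The mevalonate arm lies at 68.4% and 62.3% in Vil-CREPT-KO, while the stomach mucous list lies at 0.262% and 0.197% and the pancreatic acinar list at 0.0693% and 73.1%.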

How the data were processed

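Total RNA of the 4 libraries was extracted with Trizol and sequenced on the BGISEQ platform. The labels name the tissue as intestine and the study's methods also speak of crypts, so the material is not settled. The authors mapped clean reads with Bowtie2 to the reference transcripts of GRCm38.p6, calculated levels with RSEM, tested genes with DESeq2, and deposited FPKM per gene and library. The processing notes also name HISAT and mm10, and their versions were not given in the sources used here. RSEM divides reads shared by similar genes by estimate, and FPKM are relative, so abundant transcripts lower all other values of a library. The 10 most abundant genes held 17.5% to 19.0% of summed FPKM. Spacing between low values put depth near 17500000 to 18300000 fragments per library, but whole reads were not recovered, so no count model was run and no counting interval is given. Groups came from sample titles.

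Of 17505 identifiers, 17473 matched a symbol and 32 did not. The 11621 genes averaging 1 FPKM or more were fitted as log2(FPKM + 1) with limma 3.58.1 in R 4.3.3 with a mean-variance trend, two-sided, with Benjamini-Hochberg adjustment over all of them, and the script was tested on simulated data. The log2(FPKM + 1) scale understates changes of low genes. Residual degrees of freedom were 2 and prior ones 3.08. An exact permutation test of 2 against 2 libraries cannot go below 0.333. The members, lists and tests were chosen with earlier results of these data known. All members were named, with Rprd1b and, of each other list described, up to 3 called genes or up to 2 of the most abundant. Vil1, Prss1, Alb and Cyp2e1, and the genes so marked in the text, were added. Alternatives were pseudocounts of 0.1 and 5, no filter, a minimum of 5 FPKM, centring on the median, quantile normalization, rescaling without stomach mucous and pancreatic genes, no trend, robust moderation, adjusted p alone, a block for the replicate number, and the fit without each library in turn. The crossed block and the counts of non-overlapping genes under other settings were added after the data were seen.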

Additional observations from a re-analysis of the deposited data

How the results depend on the processing

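Of 16 alternatives, 12 kept the call of Insig1, with log2 differences from -1.86 to -1.34. Members called lower numbered 1, but 0 with no filter, 2 when rescaled without stomach mucous and pancreatic genes (Insig1 and Fdps), and 0 to 2 with 1 library left out. Members called higher numbered 0 under each of the 16. The median over members ran from -0.54 to -0.29. In 21 of the 27 members no alternative turned the sign. The filters, no trend, robust moderation, adjusted p alone and both blocks left the log2 difference of each tested gene unchanged. A sign could therefore turn only under the other alternatives. Adjusted p alone only dropped the fold cut, so it could not end the call of Insig1 or of Me1. With the rescaling Nsdhl was at -0.11, Scap at -0.11 and the median of the non-sterol branch at -0.034. With each library left out, Hmgcs1 ran from -0.38 to 0.090 (without WT 1), Nsdhl from -0.12 (without WT 2) to 0.15, with -0.06 without Vil-CREPT-KO 1, Hsd17b7 from -0.014 (without Vil-CREPT-KO 2) to 0.46, Sc5d from -0.22 to 0.20 (without Vil-CREPT-KO 1), with 0.11 without WT 1, Scap from -0.060 (without WT 2) to 0.091, Insig2 from -0.25 to 0.0019 (without Vil-CREPT-KO 2), and the non-sterol median from -0.039 (without WT 1) to 0.17. The cause of these turns was not tested. Members below WT in both libraries numbered 14 to 20, and those above 3 to 8, with 8 without WT 1, while over all 11621 genes 2578 to 4345 were below and 2443 to 5894 above under the same settings.

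Replicate numbers were shared by both groups, but deviations of same-numbered libraries were negatively correlated over genes (r = -0.26), and no label pairs them. With the replicate block 0 members were called lower, Insig1 having a limma adjusted p of 0.0559, and with the crossed block 1 was. Calls over all genes were 45 higher and 196 lower, against 14 and 108 with the block, 92 and 254 with the crossed block, 5 and 73 with no filter, 21 and 120 with a pseudocount of 5, and 44 and 289 when rescaled. With a WT library left out few calls remained over all genes, and with a Vil-CREPT-KO library left out calls in both directions rose. Calls of single genes that ended or appeared in those fits are to be read beside that shift. The median of all tested genes was 0.06, or -0.06 when rescaled. With 2 libraries a group, 1 left in a group is assumed to vary like the other group.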
